A study of Mus musculus with 8 samples.

Results

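The Sonic hedgehog pathway was followed through 9 genes in enamel organs of mouse first molars, chosen by gene name from the 54532 genes of the deposited read count table. They were the ligand Shh, the receptor Ptch1, the co-receptors Boc and Gas1, the inhibitor Hhip, the signal transducer Smo and the transcription factors Gli1, Gli2 and Gli3. The pathway was put forward because Shh was among the largest falls between the ages, so that the change of Shh is given as a description without a test. Molars came from wild type (wt) C57BL/6 pups without treatment at postnatal day 5 (P5), when ameloblasts secrete enamel matrix, and at day 12 (P12), when enamel matures. Pulp tissue was taken out, and enamel organs of 5 pups were pooled for each library, with 4 libraries at each age (P5 replicates 1, 3, 4 and 5, and P12 replicates 1 to 4). Each library is therefore a pool, and differences between single pups cannot be seen.

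Shh is a secreted protein that binds Ptch1 and thereby releases Smo, which then turns Gli transcription factors into activators. Ptch1, Hhip and Gli1 are themselves known target genes, and Ptch1 and Hhip limit the range of the ligand. Boc, Gas1 and Cdon help cells to bind the ligand, and their genes are known to be repressed by signalling in many tissues. In the developing tooth, Shh is made by dental epithelium and acts on epithelium and on the neighbouring mesenchyme.

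Promoter sequences are shown for target genes and for Gas1, whose counts changed in opposite directions, to show the region upstream of 1 transcript of each. The sequences are the 250 bases before the transcript start of RefSeq in GRCm38.p6, printed along the strand of the gene. The windows of Ptch1 and Gli3 lie inside the spans of these genes given below. Each of them thus belongs to a transcript that starts within the span of its gene. All sequences were read on both strands for the GLI consensus GACCACCCA and for its core CCACCC. Each match to the consensus also holds the core, and capitals mark the core. Of the 9 genes, Ptch1, Gas1, Hhip, Smo, Gli2 and Gli3 had a sequence in the table used here.
Ptch1, chr13:63565736-63565985, reverse strand: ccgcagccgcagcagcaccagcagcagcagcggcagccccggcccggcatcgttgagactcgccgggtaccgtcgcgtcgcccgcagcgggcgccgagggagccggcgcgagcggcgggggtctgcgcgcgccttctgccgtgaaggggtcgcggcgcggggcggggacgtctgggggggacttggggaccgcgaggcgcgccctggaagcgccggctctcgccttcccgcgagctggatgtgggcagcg
Hhip, chr8:80058009-80058258, reverse strand: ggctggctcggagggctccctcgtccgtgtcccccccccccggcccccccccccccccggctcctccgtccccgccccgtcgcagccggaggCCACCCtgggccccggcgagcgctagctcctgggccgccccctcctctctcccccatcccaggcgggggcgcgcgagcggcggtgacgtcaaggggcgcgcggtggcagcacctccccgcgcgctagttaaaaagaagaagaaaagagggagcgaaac
Gas1, chr13:60177536-60177785, reverse strand: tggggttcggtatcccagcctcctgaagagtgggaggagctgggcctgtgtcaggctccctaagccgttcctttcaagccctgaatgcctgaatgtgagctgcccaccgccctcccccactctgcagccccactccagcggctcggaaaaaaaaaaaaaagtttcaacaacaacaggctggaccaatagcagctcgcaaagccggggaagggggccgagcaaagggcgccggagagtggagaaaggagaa
The consensus was in none of the 6 windows and in 0.225% of all 32851 promoter windows of the same length. The core was found 1 time for Hhip, Smo and Gli3, 2 times for Gli2 and 0 times for Ptch1 and Gas1, while 28.1% of all windows hold it. No binding was measured in these samples.

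Libraries held from 16574548 to 22013456 counts. At P5 34.08% to 35.71% of each library fell on its 20 most abundant genes, compared with 16.8% to 18.97% at P12. Counts were scaled by the TMM method of edgeR to a mean effective library size of 19037603, and values called normalized counts are on this scale. Across 16440 genes that passed the filter on low counts, 57.2% differed between the ages at an adjusted p under 0.05, with 28.4% lower and 28.8% higher at P12. Scaled by total count alone, 8877 genes were higher and 2330 were lower in place of 4735 and 4676, and the median gene moved from a log2 fold change of 0.01 to 0.38. Nothing in the labels says that pools came from separate litters, so p-values measure the spread between these pools. The labels describe cells of epithelial origin, but Col1a1, a collagen gene of mesenchyme, reached 620261 ± 60095 normalized counts at P5 (SD, n = 4) and 488824 ± 49214 at P12 (SD, n = 4). Dspp, a marker of odontoblasts that early ameloblasts are also known to express, had 158556 ± 23095 (SD, n = 4) and 167051 ± 12929 (SD, n = 4). By the level of Col1a1, the libraries held RNA from outside the epithelium. In whole enamel organs, fewer cells of a type and less RNA per cell cannot be told apart. This holds for every gene below.

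At P12 the ligand and the target genes Ptch1, Hhip and Gli1 were far lower than at P5. The co-receptors Boc and Gas1 were higher, and Smo differed little. All 9 genes passed the filter, although Shh reached its minimum at P5 only. Apart from Shh, 6 of the genes were lower and 2 were higher at P12 at an adjusted p under 0.05 (quasi-likelihood test of edgeR, Benjamini-Hochberg adjusted over all genes). Among all genes, 28.4% were lower and 28.8% were higher at this threshold. Counting Shh, 5 of 9 were lower by at least 1 log2 unit, which held for 10.2% of all genes. Gli2, 1 of these 5, had a log2 fold change of -1.16, and of -1.18 to -0.78 in 18 other fits. With Shh again counted, no gene overlapped between the ages, with 7 lower and 2 higher. Among all genes, 26.6% and 26.0% lay apart in those directions. The genes were chosen with results of these data known, so the counts stand as a description.

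**Figure D1:**
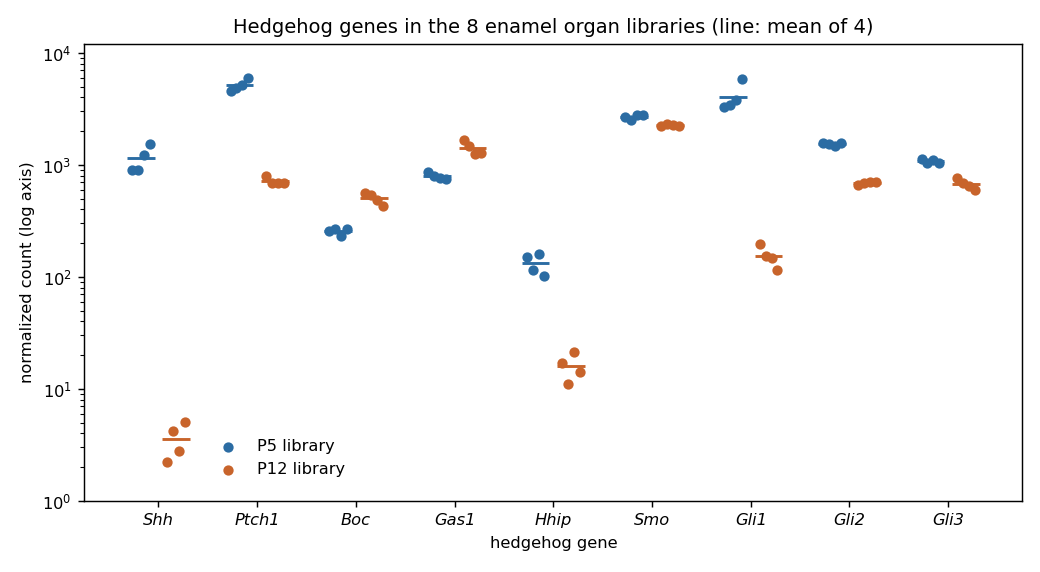
Normalized counts (log axis) of the 9 hedgehog genes in each of the 8 libraries, with a line at the mean of 4 libraries of an age. The P12 points of Shh lie between 2.2 and 5.02 against 905 to 1533 at P5, and only Boc and Gas1 have their P12 points above those at P5.

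Shh (ENSMUSG00000002633, chromosome 5 of GRCm38, 28456815 to 28467256, reverse strand) had normalized counts of 905, 907, 1226 and 1533 in P5 replicates 1, 3, 4 and 5. At P12 they were 2.2, 4.22, 2.78 and 5.02 in replicates 1 to 4, from 3, 5, 3 and 5 reads. All P12 libraries were thus at or just above the floor of 3 reads, and P5 replicate 5 was the highest library. The 4 libraries of an age together held 3893 reads at P5 and 16 at P12, a level 333-fold lower at P12 after scaling (95% exact Clopper-Pearson interval 205 to 584, for counting error only). The fitted log2 fold change was -8.32 (SE 0.29, where SE is the standard error), which ranked 5 among the falls of all 16440 genes. Of the exonic bases of Shh, 28.3% also lie in exons of antisense genes, and the strand setting of the counting is not given in the sources used here.

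The other hedgehog ligands were too low to be tested at either age. Ihh, the ligand of growing cartilage, had 3, 2, 1 and 3 reads in P5 replicates 1, 3, 4 and 5, and 12, 7, 7 and 8 reads in P12 replicates 1 to 4. Dhh, the ligand of Schwann cells and testis, had 8, 2, 12 and 5 reads at P5 and 17, 18, 8 and 7 at P12. Per kilobase of gene length, Shh stood at 401 ± 106 normalized counts (SD, n = 4) at P5, against means of 0.868 for Ihh and 1.91 for Dhh. At P12 the 3 ligands were all low, with 0.773 to 1.76 per kilobase for Shh, 1.94 to 2.89 for Ihh and 1.6 to 3.45 for Dhh. Dhh overlapped with both of the others, and every Ihh library was above every Shh library.

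Ptch1 (ENSMUSG00000021466, chromosome 13, 63508328 to 63573598, reverse strand), the receptor that holds Smo back, had normalized counts of 4562, 4839, 5125 and 5954 in the P5 libraries. In the P12 libraries it had 794, 682, 690 and 684. The ages lay far apart and the P12 libraries close together, apart from replicate 1. The log2 fold change was -2.84 (SE 0.10, edgeR adjusted p = 2.1e-09). Hhip (ENSMUSG00000064325, chromosome 8, 79965851 to 80058006, reverse strand), a membrane protein that sequesters hedgehog ligands, was much less abundant. It had 150, 116, 160 and 101 normalized counts in the P5 libraries, against 16.9, 11.0, 21.3 and 14.1 in the P12 libraries. It fell by 3.05 on the log2 scale (SE 0.25, edgeR adjusted p = 1.5e-06). Unlike Shh and Ptch1, Hhip had its lowest P5 value in replicate 5.

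Of the co-receptors, Boc and Gas1 were higher at P12, while Cdon, described with the wider pathway, was lower. Boc (ENSMUSG00000022687, chromosome 16, 44485049 to 44558897, reverse strand) had normalized counts of 256, 269, 231 and 265 at P5 and of 561, 538, 486 and 427 at P12. This was a rise of 0.98 on the log2 scale (SE 0.10, edgeR adjusted p = 9.1e-06). Gas1 (ENSMUSG00000052957, chromosome 13, 60174405 to 60177365, reverse strand), a membrane-anchored protein, had 857, 793, 759 and 741 at P5 and 1661, 1483, 1244 and 1281 at P12. It rose by 0.85 on the log2 scale (SE 0.10, edgeR adjusted p = 2e-05). In both genes the lowest P12 library exceeded the highest P5 library. Of the exonic bases of Gas1, 19.9% are shared with the antisense gene Gm48488, which had 14 to 24 reads at P5 and 25 to 42 at P12. Of 11 markers of dental mesenchyme and odontoblasts, 5 were higher at P12 and 2 were lower, or 63.6% called against 57.2% of all genes. Prrx1, a transcription factor of mesenchyme, rose from 297 ± 7.03 to 814 ± 116 normalized counts (SD, n = 4), and Twist1, another one, from 213 ± 51.7 to 503 ± 150 (SD, n = 4). Postn, a matrix gene of the periodontal ligament, rose from 1216 ± 108 to 18750 ± 7801 (SD, n = 4). Lower at P12 were Col1a2, a collagen gene, with a log2 fold change of -0.36, and Dmp1, a gene of mineralized matrix, with -0.42. Both were near 0 with total count scaling (0.02 and -0.04), and both calls were lost when P12 replicate 3 or P5 replicate 3 was left out. Of 18 other fits, the result of Col1a2 held in 10 and that of Dmp1 in 9. Col3a1 (3.64) and Lum (1.54) were the other higher markers, and Col1a1 (-0.34), Vim (0.21), Dspp (0.08) and Phex (0.09) were not called. The summed level of the 11 markers, which is mostly collagen and Dspp, was 1037001 to 1232452 at P5 and 919340 to 1203821 at P12. The part of these cells in the values of Boc and Gas1 was not tested.

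Smo (ENSMUSG00000001761, chromosome 6, 29735503 to 29761365, forward strand), the transducer at the membrane, was the steadiest of the genes. The P5 libraries had 2657, 2518, 2760 and 2761 normalized counts, against 2244, 2326, 2271 and 2209 in the P12 libraries. The log2 fold change of -0.24 (SE 0.06, edgeR adjusted p = 0.0033) was small, although the ages did not overlap. It depended on the scaling, and with total counts alone it was 0.13 (adjusted p = 0.072), below the 0.38 of the median gene under that scaling.

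Gli1 (ENSMUSG00000025407, chromosome 10, 127329882 to 127341974, reverse strand), an activator and itself a target gene, had normalized counts of 3254, 3441, 3785 and 5819 at P5. At P12 they were 196, 152, 147 and 114. Gli1 was 26.7-fold lower by the means, with a log2 fold change of -4.73 (SE 0.22, edgeR adjusted p = 2e-08). Among all genes this was rank 58 of the falls, and P5 replicate 5 stood above the others as it did for Shh. Of its exonic bases, 6.5% are shared with antisense genes, of which Arhgap9 had 52 to 84 reads at P5 and 69 to 114 at P12.

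Gli2 and Gli3, which carry the first response to the ligand and, for Gli3 above all, act as repressors without it, fell less. Gli2 (ENSMUSG00000048402, chromosome 1, 118834132 to 119053619, reverse strand) had 1576, 1542, 1465 and 1558 normalized counts at P5 and 666, 689, 696 and 706 at P12. Its libraries were close together at both ages, and it fell by 1.16 on the log2 scale (SE 0.06, edgeR adjusted p = 2.8e-08). Gli3 (ENSMUSG00000021318, chromosome 13, 15463235 to 15730026, forward strand) had 1127, 1043, 1098 and 1047 at P5 and 763, 682, 642 and 591 at P12. It fell by 0.69 on the log2 scale (SE 0.08, edgeR adjusted p = 2.6e-05).

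The 3 Gli genes therefore changed unequally, which can be seen within each library and does not depend on library scaling. The log2 ratio of Gli1 to Gli3 was 1.53, 1.72, 1.78 and 2.47 at P5 and -1.96, -2.16, -2.12 and -2.36 at P12, a difference of -4.02. The ratio of Gli1 to Gli2 moved from 1.37 ± 0.38 to -2.2 ± 0.35 (SD, n = 4), and that of Gli2 to Gli3 from 0.51 ± 0.07 to 0.05 ± 0.19 (SD, n = 4). Each of the 3 ratios had p = 0.0286 in a two-sided exact permutation test over 70 splits, the smallest that 4 against 4 libraries allow, and 0.0286 after Benjamini-Hochberg adjustment. For Gli2 to Gli3 the adjusted p of the exact test was 0.0571 without P5 replicate 1, 3 or 5. Per kilobase, Gli1 made up 65.2% to 77.6% of the summed Gli level in the P5 libraries and 12.2% to 18.2% in the P12 libraries. Gli2 became the most abundant of them at P12, with a mean of 50.2% ± 4.1 (SD, n = 4), followed by Gli3 with 32.9% to 36.9%.

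**Figure D2:**
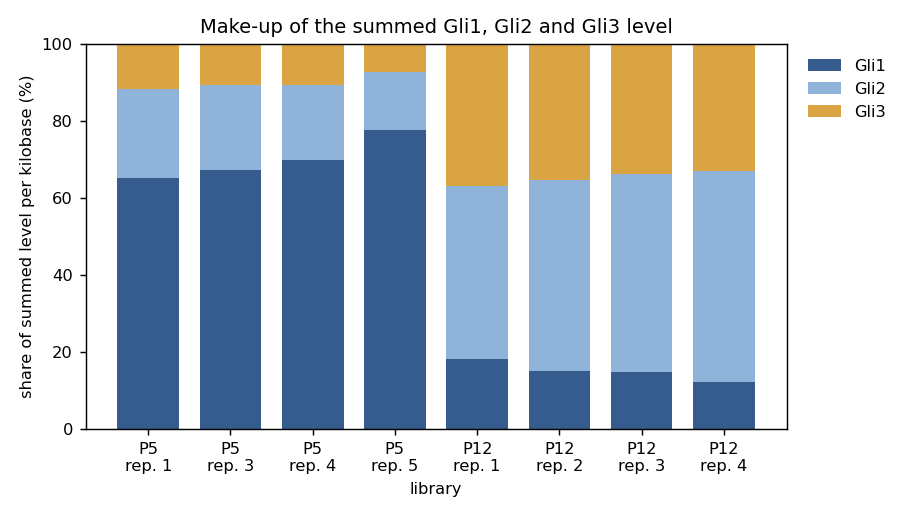
Stacked bars of the share (%) of Gli1, Gli2 and Gli3 in their summed normalized counts per kilobase, 1 bar for each library. Gli1 takes 65.2% or more of every P5 bar and at most 18.2% of every P12 bar.

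Set side by side per kilobase of gene length, the order of the 9 genes changed with age. At P5 the highest was Gli1 with a mean of 816 ± 237 normalized counts per kilobase (SD, n = 4), followed by Smo (476), Shh (401), Ptch1 (361), Gas1 (266), Gli2 (223), Gli3 (113), Boc (57.3) and Hhip (14.5). Smo and Shh overlapped in their ranges, as did Shh and Ptch1, while the other neighbours in this order did not. At P12 Gas1 came first with 479 ± 65.4 per kilobase (SD, n = 4), followed by Smo (403), Boc (113), Gli2 (100), Gli3 (69.8), Ptch1 (50.2), Gli1 (30.5), Hhip (1.74) and Shh (1.25). Here Boc overlapped with Gli2 and Hhip with Shh. Gli1 thus moved from the first place to the seventh, and Gas1 from the fifth to the first.

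**Figure D3:**
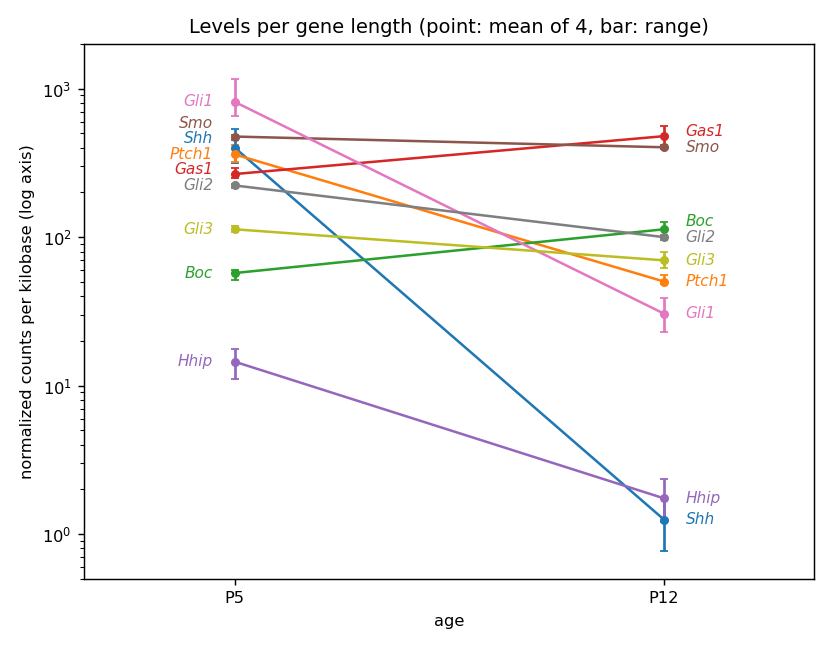
Mean level of each gene at P5 and P12 in normalized counts per kilobase (log axis), with bars from the lowest to the highest of 4 libraries. The lines of Shh, Gli1 and Ptch1 fall steeply across those of Gli2 and Gli3, and the lines of Gas1 and Boc rise.

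The libraries of 1 age did not vary alike for all genes. P5 replicate 5 had 1.51 times the mean of the other P5 libraries for Shh, 1.67 times for Gli1 and 1.23 times for Ptch1, but 0.708 times for Hhip and 0.923 times for Gas1. The markers of maturation were lowest in the same library, with 703 normalized counts of Klk4 against 2586 to 3589 in the other P5 libraries and 332 of Slc24a4 against 1581 to 2269. With both this library and P12 replicate 4 left out, a choice made after the data were seen, all 9 genes kept their direction and the 8 tested ones their calls. At P12, Gli1 was highest in replicate 1 (1.42 times the mean of the others) and lowest in replicate 4 (0.694 times). Markers also differed between the P12 libraries. In replicates 1 to 4, Postn had 26557, 24201, 13543 and 10700 normalized counts. Amelx, a marker of secretory ameloblasts, had 24448, 23064, 58081 and 96613. Dspp, with 172838, 156051, 182568 and 156745, followed neither order. Krt13, a marker of oral mucosa, had 510 in replicate 4 against 5840 to 11244 in the others. How far these cells shape the spread of the hedgehog genes was not tested.

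**Figure D4:**
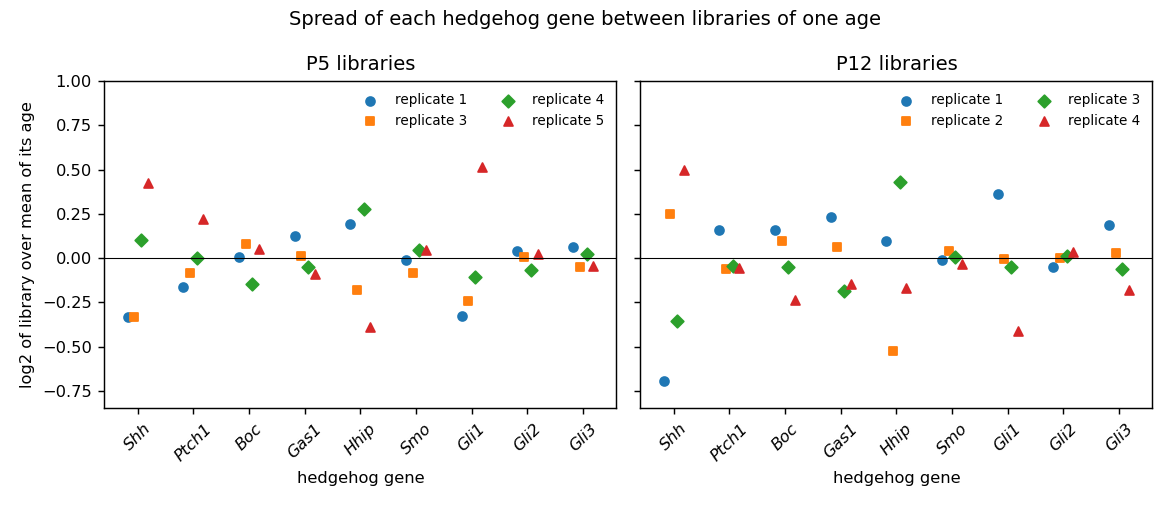
Log2 of each library's normalized count over the mean of its age, for P5 (left) and P12 (right), with 1 symbol for each replicate. P5 replicate 5 is the highest point for Shh, Ptch1 and Gli1 and the lowest for Hhip, and the P12 points of Shh rest on 3 to 5 reads.

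The wider pathway was described through 59 further genes in lists by known role, of which 53 passed the filter. Of these, 24 were lower and 5 higher at P12 by edgeR's test, with a median log2 fold change of -0.20 against 0.01 for all genes. The share called, 54.7%, was near the 57.2% of all genes. With total count scaling the split was 13 lower and 21 higher, so that the balance of small changes depended on the scaling.

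Of 3 further receptors and co-receptors, both that could be tested fell, where 28.4% of all genes were lower. Gpc3, a membrane proteoglycan that competes with Ptch1 for the ligand, fell from 5668 ± 367 to 1373 ± 179 (SD, n = 4). Cdon, the co-receptor related to Boc, fell from 719 ± 28.8 to 392 ± 51.3 (SD, n = 4), opposite to Boc and Gas1. Lrp2, an endocytic receptor, had at most 4 reads in a library and was not tested.

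Of 8 genes for the making and release of the ligand, 6 were tested and 3 fell, with none higher, where 28.4% of all genes were lower. Scube3, a secreted protein of a family that helps release the ligand, was the most abundant and fell from 9736 ± 1882 to 2198 ± 242 normalized counts (SD, n = 4). Disp2 fell from 144 ± 52.7 to 23.8 ± 8.14 (SD, n = 4), and Disp1, which releases the lipid-bearing ligand from the cell, from 555 ± 80.1 to 394 ± 26.1 (SD, n = 4). With total count scaling the log2 fold change of Disp1 was -0.12 (edgeR adjusted p = 0.33). Hhat, the acyltransferase of the ligand, was at 72.7 ± 7.63 and 68.6 ± 17.9 (SD, n = 4), with an adjusted p of 0.77 from edgeR's test.

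Of 20 genes that act downstream of Smo, 10 fell and none was called higher, with a median log2 fold change of -0.25, while total count scaling gave 6 lower and 8 higher. Among all genes 57.2% were called and 28.4% were lower. The 4 genes with the largest change fell under both scalings. Kif7, the kinesin that places Gli proteins in the primary cilium, fell from 1274 ± 218 to 315 ± 39.6 normalized counts (SD, n = 4). Gsk3b, a kinase that phosphorylates Gli proteins, fell from 4869 ± 336 to 2118 ± 243 (SD, n = 4). Arrb1, an arrestin, fell from 3519 ± 386 to 1565 ± 133 (SD, n = 4), and Sufu, the main inhibitor of Gli proteins, from 911 ± 66.6 to 546 ± 23.3 (SD, n = 4). The log2 fold change of Sufu was -0.74, beside -0.69 for Gli3.

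Of 17 genes of the primary cilium, where Smo and the Gli proteins meet, 7 fell and 2 rose, with a median of -0.14, while total count scaling gave 2 lower and 8 higher. Here 52.9% were called, against the same 57.2%. Tulp3, a cilium trafficking factor that restrains the pathway, fell most, from 1507 ± 285 to 519 ± 27.9 normalized counts (SD, n = 4). The log2 fold change was -0.74 for Ofd1, -0.57 for the motor gene Kif3a and -0.45 for Tctn1, of which the latter 2 missed the threshold with total count scaling (-0.20 and -0.07). Cc2d2a, of the transition zone, rose from 220 ± 28.5 to 372 ± 18.6 (SD, n = 4), and Kif3b by 0.36 on the log2 scale.

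Further genes known as targets in other tissues did not move together, with 3 higher and 2 lower of 8 tested, or 62.5% called against 57.2% of all genes. Mycn, a growth regulator, fell from 85.3 ± 11.7 to 35.6 ± 3.43 normalized counts (SD, n = 4), and Ccnd2, a cyclin, by 0.25 on the log2 scale, which turned to 0.13 with total count scaling. Sfrp1, a secreted Wnt antagonist, rose from 387 ± 50.8 to 1053 ± 206 (SD, n = 4), Foxf2 from 165 ± 10.1 to 258 ± 66.3 (SD, n = 4) and Foxm1, a factor of cell division, from 124 ± 26.5 to 227 ± 47.1 (SD, n = 4). The call of Foxf2 was lost in the 6 libraries with shared replicate numbers, fitted without a block (0.54, edgeR adjusted p = 0.059). All 5 markers of cycling cells were higher at P12 as well, where 28.8% of all genes were higher. Their summed level was 1384 to 1837 at P5 and 2376 to 4216 at P12, and their part in the value of Foxm1 was not tested.

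**Figure D5:**
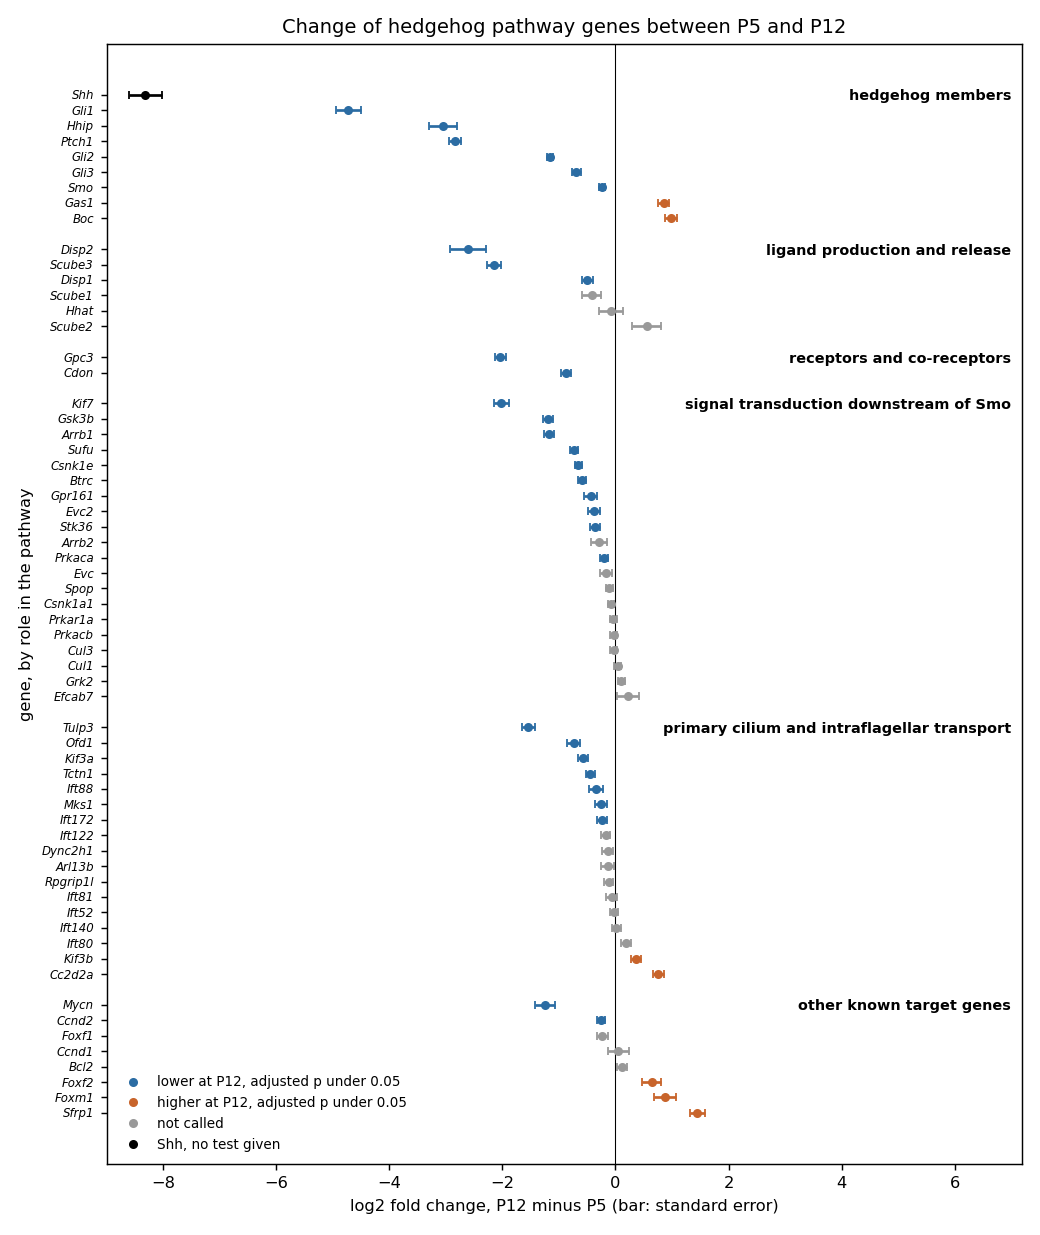
Log2 fold change (P12 minus P5, bars are standard errors) of the 9 hedgehog genes and of 53 further pathway genes by role, coloured by the call at an adjusted p under 0.05 except for Shh, which is black and without a test. Shh and Gli1 lie farthest to the left, at -8.32 and -4.73, and most genes of the cilium and downstream of Smo lie near 0.

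The genes that flank Shh on chromosome 5 changed less than Shh, and not all in 1 direction. As Shh was put forward for its large fall, a smaller change was likely for almost any other gene. Rbm33 (28317121 to 28419239), on one side, had a log2 fold change of -0.56 (edgeR adjusted p = 0.00021). Rnf32 (29195992 to 29228457), on the other side, fell from 107 ± 14.7 to 39.8 ± 6.34 normalized counts (SD, n = 4). Lmbr1 (29229802 to 29378390), known to hold the limb enhancer of Shh in an intron, was at 288 ± 34.3 and 301 ± 17.5 (SD, n = 4), with an edgeR adjusted p of 0.62 that became 0.003 with total count scaling. Nom1 was higher by 0.26 on the log2 scale, a call that was lost without P5 replicate 5 and P12 replicate 4 (0.17), and En2, Cnpy1 and Mnx1, with at most 9, 13 and 0 reads in a library, were not tested.

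The genes whose pattern was most like that of Shh were sought by the root mean square difference of centred log2 normalized counts over the 8 libraries, with a pseudocount of 1, among 11343 other genes with a mean of at least 100. They were Papln (0.44), Chst1 (0.49), Otof (0.79), Ctnna2 (0.81) and Galnt12 (0.91). Without the pseudocount, an alternative chosen after the data were seen, the same 5 genes were closest, but Chst1 (0.51) came before Papln (0.59) and Ctnna2 (0.95) before Otof (1.06). Closest to Ptch1 were Ttll11 (0.04), Tmem229b (0.09) and Fam3c (0.10). Closest to Gli1 were Wnt3a (0.22), F2r (0.26) and Vwa2 (0.26). Wnt3a, a secreted Wnt ligand, had normalized counts of 792, 757, 853 and 1298 at P5 and 55.7, 48.1, 47.3 and 27.1 at P12. Like Gli1, Wnt3a and Vwa2 were highest in P5 replicate 5 and at P12 highest in replicate 1 and lowest in replicate 4. At P12 F2r was highest in replicate 2. All of them were picked for their likeness to Gli1 over these libraries, so a shared order is no separate evidence. These distances describe 8 libraries, in which the difference of age makes up most of the pattern.

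Markers of other cells differed between the ages beside these genes, and their counts stand beside 28.8% higher and 28.4% lower among all genes. All 4 markers of secretory ameloblasts were lower and all 4 of maturation ameloblasts were higher at P12. Of 3 markers of the stratum intermedium, the cell layer beneath the ameloblasts, 2 were higher, and of 6 general epithelial markers 3 were higher and 1 was lower. Higher at P12 were also 4 of 4 markers of oral mucosa, 4 of 4 of endothelium and 3 of 4 of Schwann cells. The oral mucosa markers Krt6b and Krt76 reached the minimum of the filter at P12 only, the age where they were high. Krt4, another one, overlapped between the ages, with 276 normalized counts in P12 replicate 4 against 183 to 348 at P5. The summed level of the oral mucosa markers was 440 to 861 at P5 and 3298 to 31165 at P12, and that of the endothelial markers 2107 to 2532 and 4061 to 4324. The Schwann cell markers summed to 500 to 732 at P5 and 971 to 1392 at P12. The part of these cells in the changes of the hedgehog genes was not tested.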

How the data were processed

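Poly(A) RNA of enamel organs was sequenced at P5 and P12. The authors deposited raw read counts per gene as whole numbers, with coordinates and lengths. The labels name CASAVA and the build mm39, but the deposited coordinates are those of GRCm38 (GENCODE M21). The aligner, the counting program and its strand setting are not given in the sources used here.

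Genes were compared by edgeR 4.0.16 in R 4.3.3 (filterByExpr, TMM, glmQLFit, glmQLFTest). No covariate was used, and p-values were adjusted over 16440 genes. The standard error is the log2 fold change divided by the square root of the F statistic. DESeq2 1.42.0, which the methods of the study name, and limma-voom (limma 3.58.1) were alternatives, as were other scalings, filters, a replicate block and each library left out. The 9 genes and all lists were chosen with earlier results of these data known. The pathway genes named are the receptors, and for other lists up to 4 genes in each direction with the largest change, an adjusted p under 0.05 and a mean of at least 50 normalized counts. A gene that met this rule is not reported here, and lists are counted without it. No library was a copy of another, since pairs of the same age had a chi-square of 4.76 to 74.55 per degree of freedom. Tested on simulated counts of 16440 genes for P12 against P5, with 200 genes changed, edgeR recovered 73% of changes of 1 log2 unit and 93% of 2 units. Of its 179 calls, 13 were false. In the data 57.2% of genes were called, so these rates cannot be carried over to the data. Intervals and floors cover counting error only, as reads carried no molecular identifiers. Ratios were tested with numpy 2.4.6 and scipy 1.17.1.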

Additional observations from a re-analysis of the deposited data

Results flagged for a closer look

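A library was marked where its gap to the nearest of the other 3 libraries of its age, as a share of the range of all 4, passed Dixon's 95% critical value for 4 samples. Of 58 such sets of libraries, 4 were marked, where chance gives about 1 in 20, or 2.9. Ptch1 was at 794 normalized counts in P12 replicate 1, against 682 to 690 in the other P12 libraries. The other 3 were all in P5 replicate 5, with 12555 for Scube3 (8665 to 8906 in the other P5 libraries), 4092 for Arrb1 (3265 to 3405) and 1930 for Tulp3 (1318 to 1415). The markers of maturation ameloblasts were lowest in that library, and their part in these values was not tested.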

How the results depend on the processing

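The calls of Ptch1, Boc, Gas1, Hhip, Gli1, Gli2 and Gli3 held in direction and at 0.05 in 18 other fits, and the direction of Shh held in 17, as a filter of 10 reads in every library left it out. Smo reversed under total count scaling, to 0.13 on the log2 scale, as did Ccnd2, also to 0.13, and Col1a2, to 0.02, where the median of all genes was 0.38. Lmbr1, which was not called, turned to -0.01 without P5 replicate 3, in a range of -0.01 to 0.12 over single libraries left out. Total count scaling also moved the further pathway genes to 21 higher and 13 lower and all genes to 8877 higher and 2330 lower. Leaving out each library gave -8.50 to -8.12 for Shh, -4.88 to -4.51 for Gli1 and -2.91 to -2.77 for Ptch1 as log2 fold changes. The log2 ratio of Gli2 to Gli3 differed by -0.53 to -0.38 between the ages when each library was left out, and in 3 of these 8 cases its adjusted p missed 0.05. With no division by gene length, Ptch1 in place of Gli1 came first at P5 and Smo in place of Gas1 at P12. A replicate block on the 6 libraries with replicate numbers shared by P5 and P12 gave -8.23 for Shh, -4.52 for Gli1, -0.24 for Smo (edgeR adjusted p = 0.038), and 3867 genes higher and 3843 lower, against 4076 and 4041 in the same libraries without the block. It changed no call of the 9 genes, and among the other genes named Ccnd2 (adjusted p = 0.054), Col1a2 (0.068) and Nom1 (0.13, all edgeR) missed the threshold. Same-numbered libraries did not deviate together (correlation of their deviations 0.045, 0.005 and -0.036), so the numbers were not taken to pair them. At P12 the depth limits Shh, with 3 to 5 reads in a library, to a fold with a wide interval.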

Other observations

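The antisense genes that overlap exons of Shh were looked up after its values were seen. Gm26894 had 24, 23, 11 and 36 reads in P5 replicates 1, 3, 4 and 5 and 0 in all P12 libraries, and it was highest in P5 replicate 5, as Shh was. 9530036O11Rik had 2, 3, 3 and 1 reads at P5 and 0 at P12. Without a known strand setting, reads of Shh and of these genes cannot be told apart where their exons overlap.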
